A study of Mus musculus with 12 samples.

Results

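Regulators of G protein signalling (RGS) are a family of proteins that switch G protein signals off. The 7 genes described here are Rgs2, Rgs4, Rgs7, Rgs8, Rgs10, Rgs14 and Rgs16, taken as the probe sets whose annotated symbol is a member. The list was drawn up with earlier results of these data known. These genes are 7 of 17097 genes named on the array and carry 12 of its 45037 probe sets without array controls. All 7 genes and all 12 probe sets passed the filter on low values, which left 13853 genes to be tested.

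RNA of the ipsilateral mouse hippocampus, after an injection into the amygdala, was read on 12 arrays, 3 in each of 4 groups. In the KA groups at 14 d and at 8 h, 0.3 µg of kainic acid (KA), which activates kainate receptors for glutamate, was injected in 0.2 µl of phosphate-buffered saline to set off a prolonged seizure. Lorazepam, a benzodiazepine that shortens such seizures, was given into the abdomen at 6 mg/kg 40 min later. The control groups at 14 d and at 8 h received 0.2 µl of the saline alone, and the sources used here do not say whether they also had lorazepam. Strain, sex and age are not given in the sources used here, and they name no transgene or mutation.

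A receptor that binds its ligand loads GTP onto a G protein alpha subunit, which then acts on enzymes and channels until the GTP is hydrolysed. RGS proteins speed up that hydrolysis and so shorten the signal. In the brain they set how long receptors for glutamate, GABA, acetylcholine, serotonin and peptides act on neurons. Rgs2, Rgs4, Rgs8 and Rgs16 belong to the R4 subfamily, whose small members consist of little more than the RGS domain. Rgs7 belongs to the R7 subfamily, which works as a complex with the beta subunit Gnb5 and a membrane anchor. Rgs10 and Rgs14 belong to the R12 subfamily.

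Of the 7 genes, 5 lie on mouse chromosome 1, while Rgs10 lies on chromosome 7 and Rgs14 on chromosome 13. In the RefSeq annotation (GRCm38.p6) no protein-coding gene lies between Rgs8 and Rgs16. Likewise none lies between Rgs4 and Rgs5, a further RGS gene. RefSeq promoter windows were found for 6 of the 7 genes. The 250 bases before the annotated start are shown for Rgs2, Rgs4 and Rgs7, the members with the largest KA changes at 8 h. Capitals mark TGACG or its reverse complement CGTCA, the core of the cyclic AMP response element, the site bound by the activity-regulated factor CREB. Each sequence runs 5′ to 3′ on the strand of the gene, which is the minus strand for all of them.
Rgs2, chr1:144004150-144004399: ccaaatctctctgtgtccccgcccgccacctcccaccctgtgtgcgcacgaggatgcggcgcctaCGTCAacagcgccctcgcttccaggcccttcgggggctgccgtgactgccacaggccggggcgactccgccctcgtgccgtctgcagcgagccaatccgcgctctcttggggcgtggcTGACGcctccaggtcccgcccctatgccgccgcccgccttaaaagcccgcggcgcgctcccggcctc
Rgs4, chr1:169747643-169747892: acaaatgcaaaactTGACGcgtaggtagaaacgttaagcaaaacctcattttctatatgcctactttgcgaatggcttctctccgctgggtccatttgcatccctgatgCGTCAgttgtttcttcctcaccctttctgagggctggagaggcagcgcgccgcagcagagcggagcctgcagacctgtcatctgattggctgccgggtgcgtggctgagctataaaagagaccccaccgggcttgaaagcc
Rgs7, chr1:175492546-175492795: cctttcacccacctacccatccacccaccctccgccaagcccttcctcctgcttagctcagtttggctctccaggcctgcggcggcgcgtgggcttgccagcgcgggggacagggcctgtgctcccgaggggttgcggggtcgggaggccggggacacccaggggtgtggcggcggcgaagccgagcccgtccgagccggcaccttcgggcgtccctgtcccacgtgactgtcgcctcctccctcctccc

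The Rgs2 and Rgs4 windows each hold 2 cores, and the Rgs7 window holds none. In Rgs2 they begin at -185 and -67, and in Rgs4 at -236 and -141, counted back from the annotated start. The Rgs7 window ends at an annotated start that is not the outermost of the gene. Of 32851 mouse promoter windows of the same length, 17.8% hold at least 1 core on either strand and 3.9% hold 2 or more. Rgs8 has 3 windows, of which 1 holds a core at -46, and the windows of Rgs10 and Rgs16 hold none. The full element TGACGTCA, which contains the core on both strands (1.55% of windows), the AP-1 site TGANTCA (6.75%) and the SRF CArG box (1.47%) had no match in any member window. The EGR site GCGNGGGCG (4.7% of windows) had 1 match, in Rgs2 at -176. These are matches of letters and were not tested as binding sites.

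The arrays had medians of 4.90 to 4.95 (log2) and correlations of 0.989 to 0.997 between arrays of a group. In every group replicate 3 had the widest spread over probe sets (SD 1.81 to 1.83). Its background, read from control probe sets, was the lowest of its group (4.10 to 4.27). KA 14 d replicates 2 and 3 had the narrowest and the widest SD of the 12 arrays (1.73 and 1.83). The source of this pattern was not tested. Nothing in the labels ties arrays to separate animals, so the p-values cover the spread between these samples, which may be technical. Having 3 arrays a group limits the precision. On the KA arrays at 8 h, Xist, which is transcribed from the inactive X chromosome of females, lay at 7.39 to 8.71, against 4.19 to 4.67 on the other 9 arrays. The Y-linked gene Eif2s3y lay at 5.57 to 6.83 on those KA arrays, against 7.46 to 8.09 on the 9 others. At 8 h, KA and what these genes mark cannot be told apart. A separate time entry reads 11, 12 and 13 h for the KA arrays titled 8 h, against 8, 9 and 10 h for their controls, and if it were true, the hour of sampling would be confounded with KA.

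The comparison at 8 h asks which members differ in the hippocampus in the hours after the seizure. Rgs2, Rgs4, Rgs7, Rgs16 and Rgs10 were higher after KA, and no member was lower. That is 5 of 7 members at an adjusted p under 0.05 (limma, Benjamini-Hochberg over 13853 genes), where 17.5% of all genes tested passed in either direction and 7.92% passed as higher. The members were chosen with earlier results of these data known, so this contrast is not a test of the family. The median log2 change of the members was 0.46, against -0.02 over all genes. The arrays of the KA and control groups did not overlap for 6 members, all but Rgs14, where this held for 33.8% of all genes.

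Rgs2 encodes a regulator with a preference for alpha subunits of the Gq class and is known as a gene induced by neuronal activity. At 8 h its log2 level was 9.47, 9.35 and 9.62 on the KA arrays, against 7.56, 7.81 and 7.74 on the control arrays. Every KA array lay above every control array, with a gap of 1.54 between the groups. Rgs2 rose by 1.78 ± 0.19 (log2, SE, n = 3 per group), a 3.43-fold change (limma adjusted p = 7.75e-06). Rgs4, a regulator of Gi/o and Gq signals in forebrain neurons, had levels of 9.83, 9.97 and 10.06 on KA arrays, against 7.87, 8.21 and 8.33 on control arrays. The groups were again apart, by 1.5. Rgs4 rose 3.52-fold (1.81 ± 0.16, adjusted p = 1.59e-06).

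Rgs7, whose complex with Gnb5 limits Gi/o signals such as those of GABA-B receptors to potassium channels, had levels of 9.25, 9.16 and 9.34 on KA arrays at 8 h. The control arrays read 8.21, 8.07 and 8.25. The 3 KA arrays lay within 0.18 of each other and 0.92 above the highest control array. Rgs7 was 2.10-fold higher (1.07 ± 0.10, adjusted p = 2.59e-06).

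The other small R4 members moved less. Rgs16, a regulator of Gi/o and Gq signals, had levels of 7.22, 7.35 and 7.07 on KA arrays, against 6.66, 6.79 and 6.83 on control arrays at 8 h. The groups did not overlap, and Rgs16 was 1.37-fold higher (0.46 ± 0.09, adjusted p = 0.0019). Averaged over both of its probe sets the change was 0.30 and still passed the test (adjusted p = 0.0152). Rgs8, which speeds the gating of G protein-gated potassium channels and is best known from cerebellar Purkinje cells, had levels of 7.58, 7.81 and 7.74 on KA arrays, against 7.50, 7.30 and 7.36. The groups lay 0.07 apart and the change did not pass the test (0.32 ± 0.12, adjusted p = 0.0688). It passed with the replicate number as a block (adjusted p = 0.0488), and without KA 14 d replicate 2 (0.0141) or replicate 3 (0.0462), which enter only through the shared spread. Over 24 alternatives it passed in 7.

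Of the R12 members, Rgs10, a small regulator that is abundant in microglia, had levels of 7.42, 7.38 and 7.51 on KA arrays at 8 h, against 7.05, 7.28 and 7.09 on control arrays. All KA arrays lay above the control arrays, by 0.10 at the nearest. Rgs10 was 1.23-fold higher (0.30 ± 0.09, adjusted p = 0.0273). That call was lost without control 8 h replicate 1 (adjusted p = 0.109) or replicate 3 (0.0985), without KA 8 h replicate 1 (0.062) or replicate 3 (0.0958), with array weights (0.0504) and on the first 2 arrays of each group alone (0.179). Rgs14, a scaffold with a second site that binds inactive alpha subunits and a known marker of CA2 pyramidal neurons, had levels of 5.36, 5.49 and 5.47 on KA arrays, against 5.74, 5.44 and 5.64. The groups overlapped through control replicate 2. Its change was -0.17 ± 0.11 (adjusted p = 0.357), with a 95% interval of -0.40 to 0.06.

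**Figure D1:**
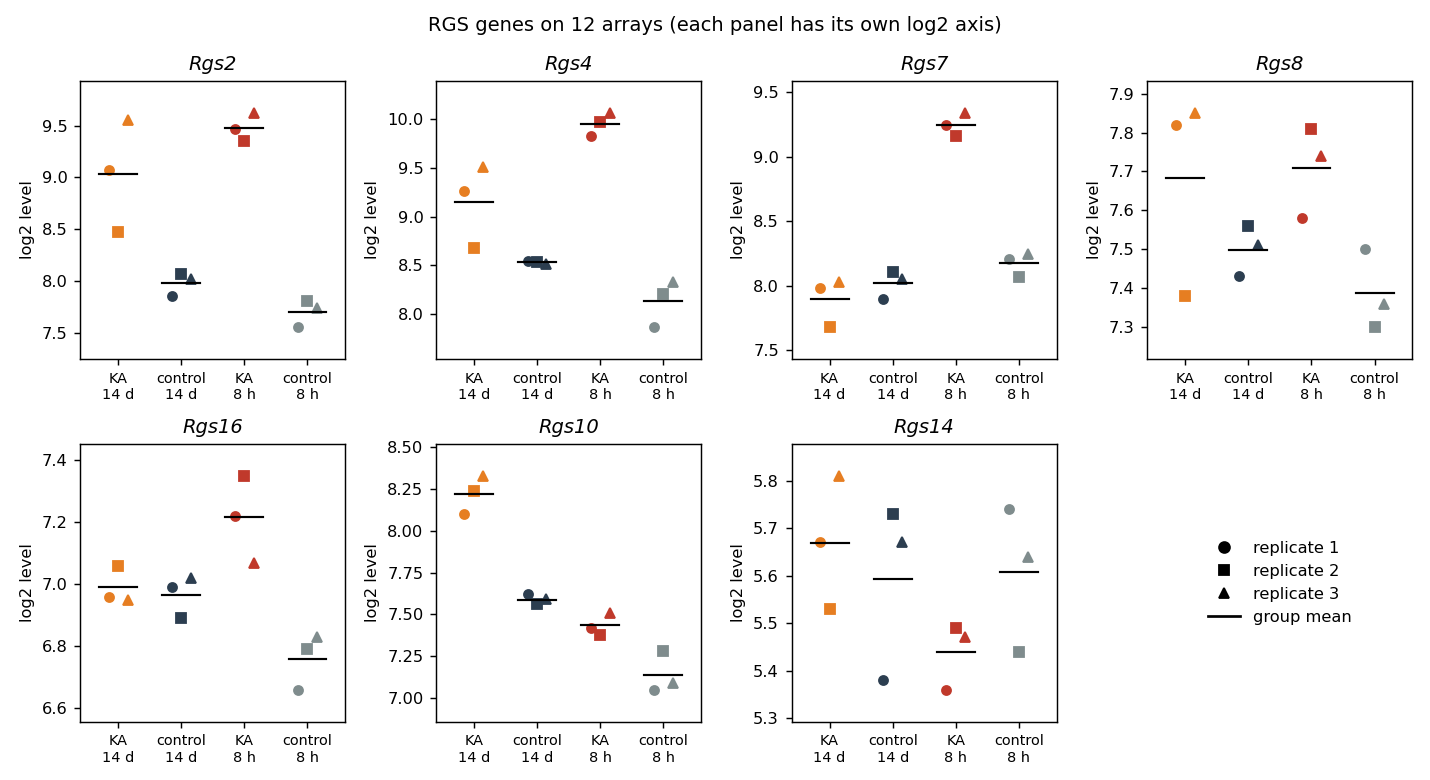
Log2 level of each of the 7 RGS genes on the 12 arrays (y axis, own range in each panel) by group (x axis), with a symbol per replicate and a line at the group mean. Rgs2, Rgs4 and Rgs7 stand clear of their controls at 8 h, Rgs10 stands highest in the KA group at 14 d, and KA 14 d replicate 2 (square) lies below the other KA arrays of that time for Rgs2 and Rgs4.

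The comparison at 14 d asks what differs once the animals have passed the acute period. Rgs2 and Rgs10 were higher after KA, and no member was lower. That is 2 of 7 members, where 2.56% of all genes tested passed in either direction and 1.99% passed as higher. The choice of members with earlier results known limits this contrast as well. The median log2 change of the members was 0.18, against -0.01 over all genes. The groups did not overlap for Rgs2, Rgs4 and Rgs10, all with the KA arrays higher, where this held for 8.02% of all genes.

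At 14 d the log2 level of Rgs2 was 9.07, 8.47 and 9.55 on the KA arrays, against 7.86, 8.07 and 8.02 on the control arrays. The KA arrays spread over more than 1 log2 unit, but the lowest of them still lay 0.40 above the highest control array. Rgs2 was 2.07-fold higher (1.05 ± 0.19, adjusted p = 0.00485). Rgs4 had levels of 9.26, 8.68 and 9.51 on KA arrays, against 8.55, 8.54 and 8.51 on control arrays. The control arrays were within 0.04 of each other, and KA replicate 2 lay 0.13 above them. The change of 0.62 ± 0.16 did not pass the test (adjusted p = 0.0606). It passed with the replicate number as a block (limma adjusted p = 0.0179). Over 24 alternatives it passed in 6, with adjusted p of 8.33e-05 to 0.218.

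Rgs10 had levels of 8.10, 8.24 and 8.33 on KA arrays at 14 d, against 7.62, 7.56 and 7.59 on control arrays. The 2 groups were compact and lay 0.48 apart. Rgs10 was 1.55-fold higher (0.64 ± 0.09, adjusted p = 0.000485), the smallest adjusted p among the members at this time.

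Rgs7 had levels of 7.98, 7.68 and 8.03 on KA arrays at 14 d, against 7.90, 8.11 and 8.05 on control arrays. The groups overlapped, and the change was -0.12 ± 0.10 (adjusted p = 0.717, 95% interval -0.34 to 0.10). Rgs16 had levels of 6.96, 7.06 and 6.95 on KA arrays, against 6.99, 6.89 and 7.02. Those groups also overlapped, with a change of 0.03 ± 0.09 (adjusted p = 0.946). The interval of the Rgs16 change runs from -0.16 to 0.21. Rgs8 (7.82, 7.38 and 7.85 on KA arrays, against 7.43, 7.56 and 7.51) had a change of 0.18 ± 0.12 (adjusted p = 0.579). Rgs14 (5.67, 5.53 and 5.81 on KA arrays, against 5.38, 5.73 and 5.67) had one of 0.08 ± 0.11 (adjusted p = 0.861). KA replicate 2 lay below the control arrays in Rgs8 and among them in Rgs14.

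**Figure D2:**
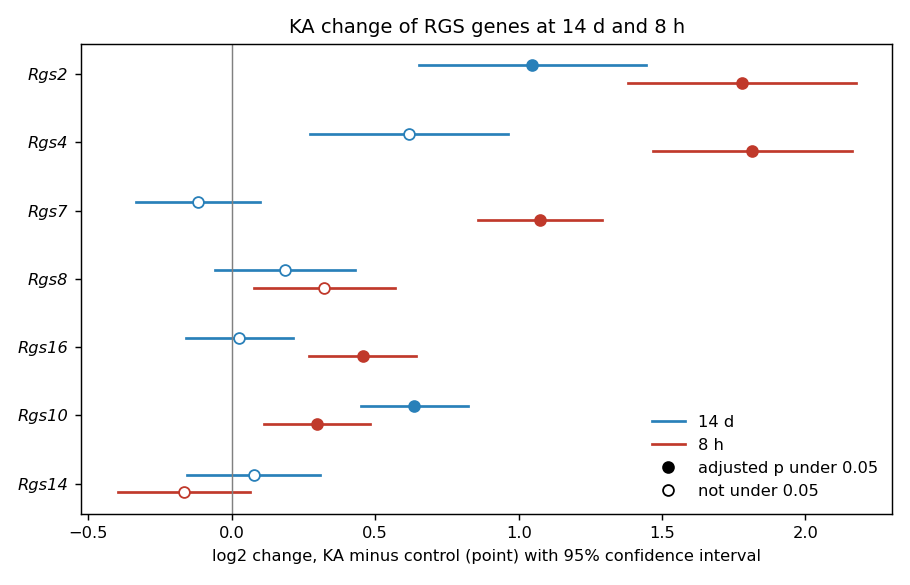
Log2 change (KA minus control, x axis) of each RGS gene at 14 d (blue) and 8 h (red), with lines for the 95% confidence interval and filled points for an adjusted p under 0.05. The Rgs4, Rgs7 and Rgs16 changes are larger at 8 h, with intervals that do not overlap those at 14 d. The Rgs16 difference between the times did not pass its test. The Rgs10 point lies further from 0 at 14 d.

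The change after KA was then compared between the times within the same model. Rgs4 and Rgs7 differed, both with a smaller change at 14 d. That is 2 of 7 members, both with a lower change at 14 d, where 5.52% of all genes tested passed in either direction and 3.06% passed as lower. The Rgs4 change was 0.62 at 14 d and 1.81 at 8 h, a difference of -1.20 ± 0.23 (limma adjusted p = 0.00533). The Rgs7 change was -0.12 at 14 d and 1.07 at 8 h, a difference of -1.19 ± 0.14 (adjusted p = 0.000115). The difference did not pass the test for Rgs16 (-0.43, adjusted p = 0.0567), Rgs2 (-0.73, 0.139), Rgs10 (0.34, 0.142), Rgs14 (0.24, 0.474) or Rgs8 (-0.14, 0.776). The Rgs16 difference passed with the replicate number as a block (0.0364), and its adjusted p ran from 0.00776 to 0.14 over the alternatives. The Rgs2 difference passed without KA 14 d replicate 3 (adjusted p = 0.00508), with array weights (0.0104) and without the third arrays (0.0305). Its adjusted p was as high as 0.272 over the alternatives, and its size ran from -0.99 to -0.45 with 1 array left out, the last without KA 14 d replicate 2. Each difference holds the 8 h change, so KA and what Xist and Eif2s3y mark cannot be told apart in it either. If the separate time entry were true, the hour of sampling would be confounded there too. The changes share no array, and each uses its own controls. Between the times these controls passed as different for Rgs10 only, but they did not overlap for Rgs2, Rgs4 and Rgs16 either.

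The controls of both times were therefore compared. Rgs10 was 1.36-fold higher in the 14 d controls than in the 8 h controls (0.45 ± 0.09, adjusted p = 0.015), with no overlap between them. It was the only member of 7 to pass, where 1.8% of all genes tested passed and 25.1% showed no overlap. The 249 genes behind that share became 86 to 421 with 1 array left out. The call was lost when any 1 of 5 control arrays was left out, all but control 8 h replicate 2 (adjusted p = 0.0539 to 0.0929), and without the third arrays (0.0596). The other members gave adjusted p of 0.267 (Rgs4) and above. Among them, the control groups also did not overlap for Rgs2 (0.28), Rgs4 (0.39) and Rgs16 (0.21), all higher at 14 d, beside the 25.1% of all genes. Of the 7 members, 3 had an unadjusted p under 0.05 in limma (Rgs4, Rgs10 and Rgs16).

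The KA arrays at 14 d were not alike in these genes. Measured from the mean of the 14 d controls, Rgs2 stood at 1.09, 0.49 and 1.57 on KA replicates 1, 2 and 3, and Rgs4 at 0.73, 0.15 and 0.97. Replicate 2 was the lowest of the KA arrays for Rgs2, Rgs4, Rgs7, Rgs8 and Rgs14. For Rgs10 (0.51, 0.66 and 0.74) it was the middle one, and for Rgs16 the highest. Over the 354 genes called at 14 d, replicate 2 was the KA array closest to the controls for 160 (45.2%), against 104 for replicate 1 and 90 for replicate 3. At 8 h the KA array of that number was also most often the closest, for 949 of 2420 genes (39.2%), against 745 and 726. The background probe sets of KA 14 d replicate 2 averaged 4.68, the highest of the 12 arrays (4.10 to 4.68). Those of KA 14 d replicate 1 averaged 4.65, and the part of background in the result was not tested. Without KA 14 d replicate 2, the Rgs4 change at 14 d was 0.85 and passed the test (adjusted p = 0.00109), and the Rgs2 change was 1.33. At 8 h the KA arrays stood at 1.77, 1.65 and 1.92 for Rgs2, at 1.69, 1.83 and 1.92 for Rgs4 and at 1.07, 0.99 and 1.16 for Rgs7.

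**Figure D3:**
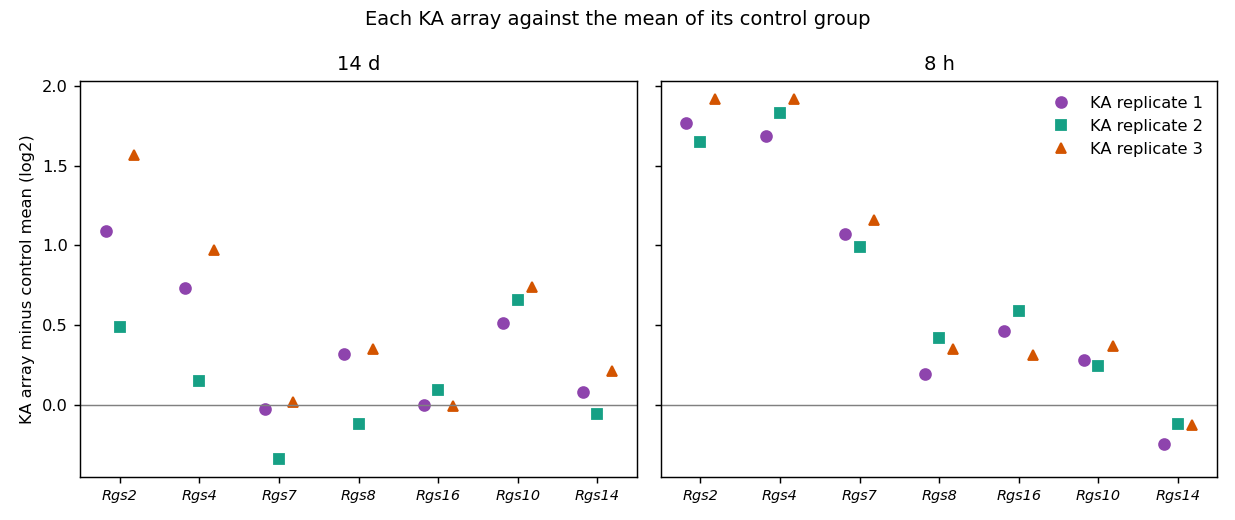
Each KA array minus the mean of its control group (log2, y axis) for the 7 RGS genes (x axis), at 14 d (left) and 8 h (right), with a symbol per KA replicate. At 14 d replicate 2 lies lowest for Rgs2 and Rgs4 and not for Rgs10, while at 8 h the 3 arrays lie close together.

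Several members have more than 1 probe set, fitted over all 32790 probe sets past the filter. Of the 12 probe sets, 9 were called at 8 h, all higher after KA, where 14.8% of all probe sets passed. At 14 d 4 were called, where 1.68% passed. Probe sets of a gene read its RNA on the same arrays, so these counts repeat genes and are not independent. Rgs2 and Rgs4 have 3 each, and all of these were among the 9 called at 8 h. The 3 Rgs4 probe sets gave log2 changes of 0.62, 0.83 and 0.70 at 14 d, of which the last passed (adjusted p = 0.021) and the others did not (0.0858 and 0.0684). With 1 array or the third arrays left out, the adjusted p of the last reached 0.142, and that of the Rgs2 probe set 1419248_PM_at at 14 d reached 0.107. At 8 h the Rgs4 probe sets gave 1.81, 1.81 and 1.88, all called. Their differences between the times were -1.20, -0.97 and -1.17, of which -0.97 did not pass (adjusted p = 0.0874). The Rgs2 probe sets 1419247_PM_at and 1419248_PM_at gave 1.05 and 0.99 at 14 d, and 1.78 and 1.82 at 8 h, all called. The third Rgs2 probe set, 1443250_PM_at, gave 0.36 at 8 h (adjusted p = 0.00957). Its levels were close to background (4.46, 4.48 and 4.62 on KA arrays at 8 h, against 4.10, 4.12 and 4.26). Only 1 KA array and none of the controls read above background there at 14 d. The second Rgs16 probe set, 1426037_PM_a_at, gave 0.14 at 8 h (adjusted p = 0.477), with levels of 4.73, 4.93 and 4.91 on KA arrays, against 4.89, 4.66 and 4.58, so the Rgs16 rise rests on 1 probe set.

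**Figure D4:**
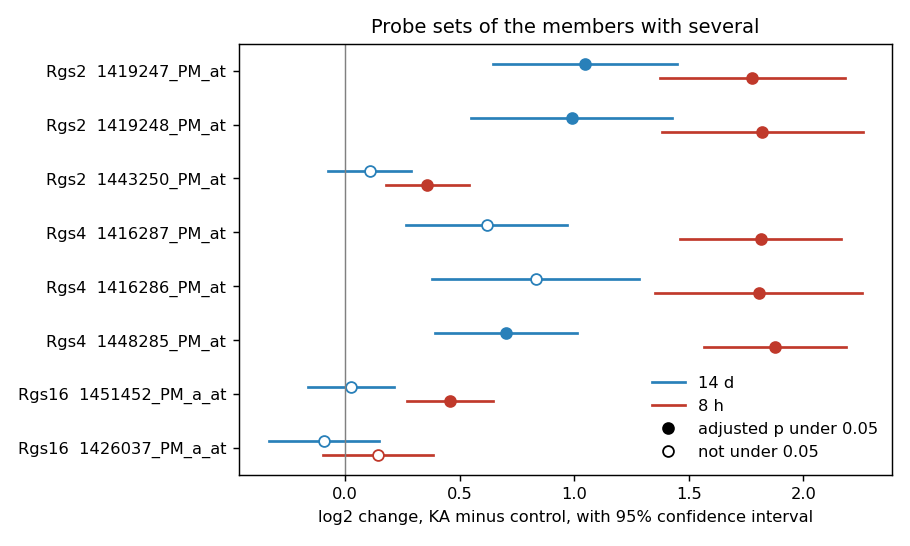
Log2 change (KA minus control, x axis) at each probe set of Rgs2, Rgs4 and Rgs16, at 14 d (blue) and 8 h (red), with 95% confidence intervals and filled points for an adjusted p under 0.05. The 3 Rgs4 probe sets lie together at each time, while 1 of the 3 Rgs2 probe sets and 1 of the 2 Rgs16 probe sets lie closer to 0.

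Markers of cell types were set beside the members. Their counts stand beside the 2.56% of all genes tested that passed at 14 d, the 17.5% at 8 h and the 1.8% between controls. In whole tissue, fewer cells of a type and less RNA per cell cannot be told apart. Rgs10 stands beside the microglia markers Aif1, Csf1r, Cx3cr1, P2ry12 and Tmem119, all above background on all arrays. At 14 d 4 of the 5 rose after KA, all but P2ry12, and their summed log2 level was 38.0 to 38.5 on KA arrays, against 34.3 to 34.7 on control arrays. At 8 h 3 of the 5 fell (Csf1r, P2ry12 and Tmem119), and the sum was 29.2 to 30.1 on KA arrays, against 31.7 to 33.0. Rgs10 was higher at both times, while the marker sum was higher at 14 d and lower at 8 h. Between the controls, Cx3cr1 and P2ry12 were higher at 14 d, as was Rgs10. Astrocyte markers also moved, with 3 of 5 higher at 14 d (sum 43.4 to 45.0 on KA arrays, against 40.4 to 40.9) and 1 of 5 at 8 h (41.4 to 41.9, against 40.5 to 40.6). The part of these cells in the changes of Rgs10 and Rgs2 was not tested. Of the blood leukocyte markers, Cd3e, Cd3g and S100a8 were below background in every group. Markers of tissue next to the hippocampus were also read. None of 5 choroid plexus markers passed at either time in limma. Their sum ran from 29.2 to 39.0 on KA arrays at 8 h, against 36.0 to 37.8 on control arrays. At 8 h 1 of 5 thalamus markers fell (Ntng1) and 1 of 2 striatum markers tested rose (Drd1). The part of uneven dissection was not tested.

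Neuronal markers were set beside the members known from neurons. Of 4 CA2 markers tested, Cacng5 fell at 8 h, and at 14 d none passed in limma, with 0 at an unadjusted p under 0.05. Their sum was 29.8 to 30.6 on KA arrays at 14 d, against 30.3 to 30.5, and 30.2 to 31.5 on KA arrays at 8 h, against 30.8 to 31.5. Neither this sum nor Rgs14 separated the groups at either time. Among the 5 markers of dentate granule cells, 2 fell and 1 rose at 8 h (sum 36.1 to 36.9 on KA arrays, against 37.8 to 38.5), when Rgs2, Rgs4 and Rgs7 rose. At 14 d 1 rose and 1 fell (35.7 to 37.3, against 36.5 to 37.8). Of 3 CA3 markers tested, Nectin3 rose at 8 h, when the sum over 4 was 26.6 to 27.5 on KA arrays, against 26.0 to 26.5, with Cpne4 below background. At 14 d the CA3 sums overlapped (25.0 to 26.8, against 25.6 to 26.4). Of 3 CA1 markers, Fibcd1 fell at 14 d, when the sum was 22.1 to 22.6 on KA arrays, against 23.3 to 23.9, and at 8 h the sums overlapped (22.9 to 23.4, against 23.0 to 23.3). Of 6 interneuron markers, Sst rose and Pvalb fell at 8 h, and Pvalb fell at 14 d. Their sums overlapped at 14 d (50.1 to 51.8 on KA arrays, against 51.4 to 51.8) and at 8 h (50.8 to 51.8, against 50.8 to 51.7). The part of these cells in the changes of Rgs2, Rgs4 and Rgs7 was not tested.

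The genes with the pattern most like each called member over the 12 arrays were found by the root mean square difference of log2 levels, each gene centred on its own mean. Rgs2 was closest to Rgs4 (0.198, against a spread of Rgs2 itself of 0.769), then to Klf10 (0.202) and Acvr1c (0.228), an activin-type receptor. Rgs4 was closest to Klf10 (0.109, own spread 0.715), which encodes a zinc finger transcription factor, then to Sorcs3 (0.162), a sorting receptor of neurons, and Spry2 (0.178), an inhibitor of receptor tyrosine kinase signals. The KA change of Klf10 was 0.65 at 14 d and 1.98 at 8 h, beside 0.62 and 1.81 for Rgs4. For Rgs7 the closest were Sertm1 (0.112, own spread 0.547), Rbbp7 (0.114), a chromatin subunit, and Slc2a13 (0.125), an inositol transporter. For Rgs10 they were Lgmn (0.115, own spread 0.404), a lysosomal protease, Igf1 (0.132), a growth factor, and Fgfrl1 (0.141). The KA change of Lgmn was 0.61 at 14 d and 0.13 at 8 h. Rgs16 varied least of these 5 members (own spread 0.179) and was closest to Srrm4 (0.069), a neural splicing factor, Prkg2 (0.071) and Ifitm10 (0.082).

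Of 14 further RGS genes, 12 were named on the array and 9 were tested. At 8 h Rgs6 and Rgs20 were higher after KA, 2 of 9, and none was lower at the probe set used. Over all genes tested, 7.92% passed as higher and 17.5% in either direction. Rgs6, an R7 relative of Rgs7, had levels of 5.59, 5.95 and 5.88 on KA arrays, against 5.22, 5.10 and 5.05 on control arrays, and was 1.61-fold higher (0.68 ± 0.12, adjusted p = 0.000777). Rgs20, a regulator of Gz, had levels of 5.76, 5.98 and 5.92, against 5.44, 5.20 and 5.06, and was 1.57-fold higher (0.65 ± 0.10, adjusted p = 0.000338). In both genes the KA and control arrays did not overlap. The Rgs20 change was 0.41 when its probe sets were averaged. Rgs5, a marker of pericytes and the chromosomal neighbour of Rgs4, had a change of -0.41 (adjusted p = 0.0632, and 0.00286 to 0.208 over its alternatives) at the probe set used, 1 of 4, while Rgs4 rose. In the fit of all probe sets, another Rgs5 probe set was lower after KA at 8 h, with a change of -0.56 (adjusted p = 0.00992), and the other 3 had -0.41, -0.23 and -0.19 and did not pass. Taken at that probe set, with those ending in x_at or s_at left out, Rgs5 passed as lower (adjusted p = 0.00737). At the probe set first named, Rgs5 passed with the replicate number as a block (0.035). The median change of the 9 was 0.10 at 14 d and -0.07 at 8 h. At 14 d none of them passed in limma, while 3 had an unadjusted p under 0.05: Rgs6 (0.42, unadjusted p = 0.00251), Rgs20 (0.34, 0.0044) and Rgs11 (-0.25, 0.0463). Without KA 14 d replicate 2, the Rgs6 change at 14 d was 0.52 and passed (adjusted p = 0.0232). Averaged over probe sets, the 14 d changes were 0.27 for Rgs6 (adjusted p = 0.208) and 0.16 for Rgs20 (0.396). In the fit of all probe sets, another Rgs6 probe set gave 0.11 (adjusted p = 0.812) and another Rgs20 probe set -0.02 (0.972). Over the alternatives, the adjusted p at 14 d ran from 0.00191 to 0.291 for Rgs6 and from 0.00285 to 0.396 for Rgs20.

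**Figure D5:**
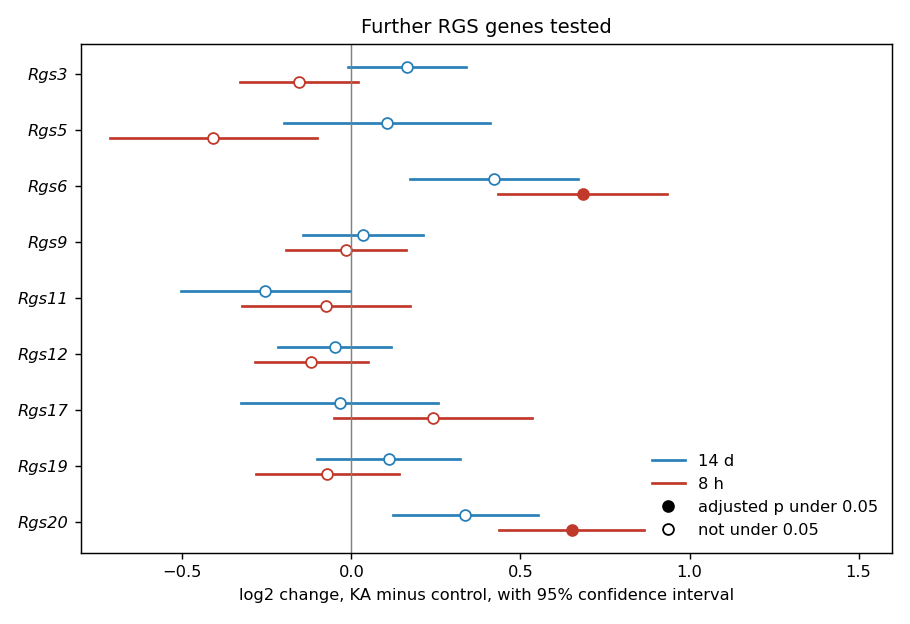
Log2 change (KA minus control, x axis) of the 9 further RGS genes tested, at 14 d (blue) and 8 h (red), with 95% confidence intervals and filled points for an adjusted p under 0.05. Only Rgs6 and Rgs20 at 8 h are filled.

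Genes of the proteins that RGS members work with were counted list by list, and a list's median stands beside the -0.01 (14 d) and -0.02 (8 h) of all genes. The counts of each list stand beside the shares of all genes tested. At 8 h 7.92% passed as higher and 9.55% as lower, and at 14 d 1.99% and 0.57%. Of the 5 partners of R7 proteins (Gnb5, Rgs7bp, Rgs9bp, Gpr158 and Gpr179), Rgs7bp, the membrane anchor of the Rgs7 complex, rose at 8 h. None passed at 14 d in limma, with 1 of 5 at an unadjusted p under 0.05, and the list's median change was -0.11 at 14 d and 0.05 at 8 h. The levels of Rgs7bp at 8 h were 10.44, 10.37 and 10.57 on KA arrays, against 10.07, 10.07 and 10.17, a 1.28-fold change (0.36 ± 0.09, adjusted p = 0.0129). The call was lost when control 8 h replicate 2 was left out (adjusted p = 0.0507) and when KA 8 h replicate 3 was (0.0577). Of 11 alpha subunits tested, Gnaz fell at 8 h (-0.32, adjusted p = 0.0307) and none passed at 14 d in limma, with 2 at an unadjusted p under 0.05 (median -0.07 at 14 d and -0.06 at 8 h). The Gnaz call was lost in 5 alternatives, with adjusted p up to 0.119. Of 12 beta and gamma subunits, Gng10 fell at 8 h (-0.34, adjusted p = 0.0431, up to 0.192 in the alternatives) and Gng5 rose at 14 d (0.48, adjusted p = 0.00942), with list medians of 0.07 at 14 d and -0.06 at 8 h. The Gng5 call was lost without control 14 d replicate 1 (0.0505) or replicate 3 (0.0567).

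Of 17 effectors of G proteins, 3 rose (Adcy4, Adcy8 and Kcnj6) and 4 fell (Adcy1, Adcy2, Adcy9 and Kcnj9) at 8 h. Of all genes tested, 7.92% rose and 9.55% fell at that time. At 14 d none passed in limma, with 3 at an unadjusted p under 0.05 (median -0.01 at 14 d and -0.07 at 8 h). The potassium channel subunit gene Kcnj6 rose (0.40, adjusted p = 0.0167) and Kcnj9, a subunit of the same channel family, fell (-0.48, adjusted p = 0.00468). Averaged over probe sets, these were 0.20 (adjusted p = 0.0812) and -0.24 (0.0217). Kcnj6 also lost its call without control 8 h replicate 1 (0.058), KA 8 h replicate 1 (0.0566) or KA 8 h replicate 3 (0.0578). Adcy2, an adenylyl cyclase, fell by 0.30 (adjusted p = 0.0157), and lost its call without control 8 h replicate 3 (0.0626) or KA 8 h replicate 1 (0.0808).

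Receptors were taken by the class of G protein they use. Of 18 tested receptors that couple to Gi/o, 1 rose and 1 fell at 14 d, and 4 rose and 3 fell at 8 h (medians of 0.00 and 0.03). Over all genes tested, 2.56% passed in either direction at 14 d and 17.5% at 8 h. The 8 h rises were in Chrm4, Grm2, Sstr1 and Sstr2, and the falls in Htr1a, Grm3 and Sstr4. Sstr2, a somatostatin receptor, had levels of 8.51, 8.48 and 8.98 on KA arrays at 8 h, against 6.58, 6.64 and 6.63 on control arrays. It was 4.10-fold higher (2.03 ± 0.15, adjusted p = 2.62e-07), with a gap between the groups larger than the spread within either. At 14 d its change was 0.70 (adjusted p = 0.0196), a call lost without control 14 d replicate 1 (0.0651) or replicate 2 (0.111) or without KA 14 d replicate 1 (0.0974), and with array weights the change was 1.06. Sstr1, another somatostatin receptor, was 1.58-fold higher at 8 h (0.66 ± 0.10, adjusted p = 0.000362). Htr1a, the serotonin 1A receptor, had levels of 5.66, 5.11 and 5.40 on KA arrays at 8 h, against 6.64, 6.61 and 6.88. It was 2.50-fold lower (-1.32 ± 0.13, adjusted p = 3.94e-06), and the change was -0.75 when its probe sets were averaged. Sstr4 fell at both times, with -0.42 at 14 d (adjusted p = 0.00265) and -0.32 at 8 h (0.0045).

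Of 8 tested receptors that couple to Gq, the class that Rgs2 prefers, the glutamate receptor gene Grm5 fell at 8 h (-0.49, adjusted p = 0.00853). At 14 d the muscarinic receptor gene Chrm3 fell (-0.45, adjusted p = 0.00505), with levels of 7.01, 7.12 and 7.03 on KA arrays, against 7.62, 7.50 and 7.40. The median of these receptors was -0.05 at 14 d and -0.12 at 8 h. Of 11 receptor kinases, arrestins and other G protein regulators, none passed at either time in limma, with 0 at an unadjusted p under 0.05 at 14 d and 1 at 8 h (medians of 0.01 and -0.07).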

How the data were processed

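Total RNA of the ipsilateral hippocampus was amplified and hybridised to Affymetrix Mouse MG-430 PM arrays, per the labels. The authors deposited 1 table of log2 values for 45141 probe sets (104 of them array controls), and per the submitters' processing notes RMA and affy were used, with no version or order given. The scale is not stated, and log2 was inferred from values of 2.63 to 13.25 with near-equal array medians, so a difference of 1 is a 2-fold change. RMA draws small differences of dim probe sets together, which can understate their folds.

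Groups came from the sample titles. Of the probe sets, 28898 carried 1 symbol, 551 several and 15588 none. Each gene was taken at its probe set with the highest mean and tested if at least 3 arrays read above their 30th percentile (4.08 to 4.15). Background is the mean of 8 control probe sets with at least 18 G or C bases. A model with 1 mean per group over the 12 arrays was run in limma 3.58.1 under R 4.3.3 (8 residual degrees of freedom, eBayes). Tests were two-sided and adjusted by Benjamini-Hochberg over 13853 genes, or 32790 probe sets, at 0.05. The fit was also run on simulated data with independent noise on each array. That run cannot cover deviations shared by arrays of the same replicate number. No count of reads underlies the values, and no arrays were left out or imputed.

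The members and the gene lists were chosen with earlier results of these data known. All members were named, with up to 3 called genes per list and time by adjusted p, all called RGS genes and the 3 genes most alike per called member. Other named genes were picked with their values in view. The groups share replicate numbers. Deviations from the group mean on KA and control arrays of the same number had r = 0.155, 0.138 and 0.413 at 8 h. At 14 d these were 0.164, 0.0684 and 0.463. The labels state no pairing, and these values do not settle it at either time. Results with the replicate number as a block are therefore given as alternatives. Alternatives changed the filter, the probe set, the scaling, array weights, the block and the arrays used.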

Additional observations from a re-analysis of the deposited data

Results flagged for a closer look

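The KA change of Rgs4 differed between the times by a test of the difference itself, with -1.20 (log2, change at 14 d minus change at 8 h, limma adjusted p = 0.00533). All 3 KA arrays stood above their control mean at both times, by 0.15 to 0.97 at 14 d and by 1.69 to 1.92 at 8 h. The mean KA level was 9.15 at 14 d and 9.95 at 8 h. The mean control level was 8.53 at 14 d and 8.14 at 8 h. That control difference of 0.39 enters the -1.20 and did not pass the test (limma adjusted p = 0.267).

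The KA change of Rgs7 differed in the same test, with -1.19 (adjusted p = 0.000115). Its KA arrays stood at -0.34 to 0.02 from the control mean at 14 d and at 0.99 to 1.16 at 8 h. Both differences passed in all 23 alternatives of the fit by gene, over ranges of -1.43 to -0.96 for Rgs4 and -1.26 to -1.08 for Rgs7. In the limma fit of all probe sets, the Rgs4 probe set 1416286_PM_at gave a difference of -0.97 that did not pass (adjusted p = 0.0874). The other Rgs4 probe sets passed (0.00773 and 0.00374). Both differences hold the 8 h change, in which KA and what Xist and Eif2s3y mark cannot be told apart.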

How the results depend on the processing

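At 8 h, Rgs2, Rgs4, Rgs7 and Rgs16 passed in all 24 alternatives, and at 14 d so did Rgs2 and Rgs10. With 3 arrays a group, changes near 0.3 in log2 lay at the limit of the test. Members called numbered 4 to 6 at 8 h when 1 array was left out and 2 to 3 at 14 d, while all genes called ran from 1658 to 2747 at 8 h (2420 with all arrays) and from 196 to 454 at 14 d (354). With array weights, whose estimation stopped before it converged, 4 members were called at 14 d, 4 in the difference of changes and 2 between controls, but all genes called rose likewise, to 2099, 2168 and 1336, against 354, 764 and 249. Between controls, leaving out 1 array gave 0 to 1 members and 86 to 421 genes in all, and leaving out the third array of each group, an alternative chosen after seeing the data, gave 0. Probe sets called at 14 d numbered 2 to 6 with 1 array left out. Rgs4 at 14 d had adjusted p of 8.33e-05 to 0.218 over its alternatives, and passed in 6. With the replicate number as a block, Rgs4 at 14 d passed (adjusted p = 0.0179), as did the Rgs16 difference (0.0364), and genes called numbered 599 at 14 d, 1214 in the difference and 570 between controls. Directions turned only where the change was not called. With 1 array left out, the Rgs16 change at 14 d ran from -0.012 to 0.051, that of Rgs14 at 14 d from -0.032 to 0.145, the Rgs8 difference from -0.221 to 0.015, and the Rgs14 change between controls from -0.096 to 0.094. Rgs16 at 14 d was -0.034 with probe sets averaged, its second probe set gave 0.035 without the third arrays, and Rgs14 between controls was 0.081 with array weights. The cause of these changes was not tested.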
